A study of Mus musculus with 4 samples.

Results

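The collagen genes of mouse spermatogonial stem cell cultures were read in 2 media. Collagen genes were taken as every gene of the count table whose symbol is Col, a type number, the letter a and a chain number. This gave 44 of 55421 genes, of which 11 encode fibrillar chains, 6 type IV chains of basement membrane, 6 type VI chains, 9 fibril-associated collagens (FACIT), 2 multiplexins, 4 network or anchoring fibril chains, 4 transmembrane collagens and 2 other collagens. The cultures were started from testes of 6-day-old CD1 pups, and germ cells were grown on irradiated mouse embryonic fibroblast (MEF) feeders from CF1 mice, so that each library pools RNA of germ cells and feeders. The Veh group stayed in complete SSC medium with vehicle, and the NRRA group spent 2 days in retinoic acid (RA), a signal that drives entry into meiosis, plus nutrient restriction medium, which is 10% complete medium and 90% balanced salt solution. The labels list N2, bFGF and GDNF for both groups, and each group had 2 poly(A) RNA-seq libraries. By the media listed in the study, NRRA cells had these factors and ascorbic acid only through the 10% of complete medium. RA, nutrient loss and this dilution cannot be told apart in this contrast. The study calls its sequencing replicates biologically independent, and the labels name no mouse or culture for a library. The common biological coefficient of variation, the spread between libraries beyond counting error, was 2.61%. All SEs and adjusted p-values rest on this small spread, and whether it is that between separate cultures was not tested.

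Collagens are proteins of the extracellular matrix in which 3 chains wind into a helix that needs hydroxylated proline, and ascorbic acid is the cofactor of that hydroxylation. Fibrillar collagens form the cables of connective tissue and are the main matrix product of fibroblasts. Type IV collagen forms the sheet-like scaffold of basement membranes, on which spermatogonia rest in the testis. FACIT collagens sit on fibril surfaces, type VI forms beaded filaments next to cells, and transmembrane collagens are anchored in the plasma membrane.

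The libraries held between 28022265 and 31604769 counts, and a floor of 3 counts lay between 0.0921 and 0.111 CPM (counts as a rate of library size after TMM adjustment). Stra8, the RA-induced gene that marks entry into meiosis, was counted 261 and 300 times in Veh, but 60702 and 55775 times in NRRA, as the labels say. All 12 germ cell markers and all 20 fibroblast markers were measured, so both cell kinds of the labelled cultures were present. Fewer cells of a type and less RNA per cell cannot be told apart in these bulk libraries, and a collagen count cannot be assigned to germ cells or feeders.

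The share of counts in collagen genes differed little between groups, while single collagen genes moved in opposite directions. In Veh the 44 genes took 0.461% and 0.449% of all counts, against 0.450% and 0.431% in NRRA (0.455% ± 0.0083 against 0.440% ± 0.013, SD, n = 2). The groups overlapped in this share, but not on TMM-adjusted library sizes, where it was 0.476% and 0.464% in Veh and 0.437% and 0.418% in NRRA. Of the 42 collagen genes with enough counts to test, 13 were higher and 16 lower in NRRA, at a threshold of 0.05 on p-values from the quasi-likelihood test of edgeR, adjusted by Benjamini-Hochberg over 20232 genes. Over all genes tested 56.4% were called, 27.9% as higher and 28.4% as lower, against 31.0% higher and 38.1% lower among the collagen genes. Changes of at least 2-fold were found for 3 collagen genes upward and 5 downward, or 7.14% and 11.9% of those tested, beside 6.29% and 7.02% of all genes. The median log2 fold change of the collagen genes (NRRA over Veh throughout) was -0.09, with an SD of 0.06 over the 4 pairings of libraries, and that of all genes was 0.00. Scaling by library size alone, without the TMM factors, moved the collagen median to 0.0041 and the split over all genes from 5654 higher and 5752 lower to 6962 and 4593. In 35 of 42 collagen genes, or 83.3%, both NRRA libraries lay outside the Veh libraries, beside 76.7% of all genes tested.

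**Figure D1:**
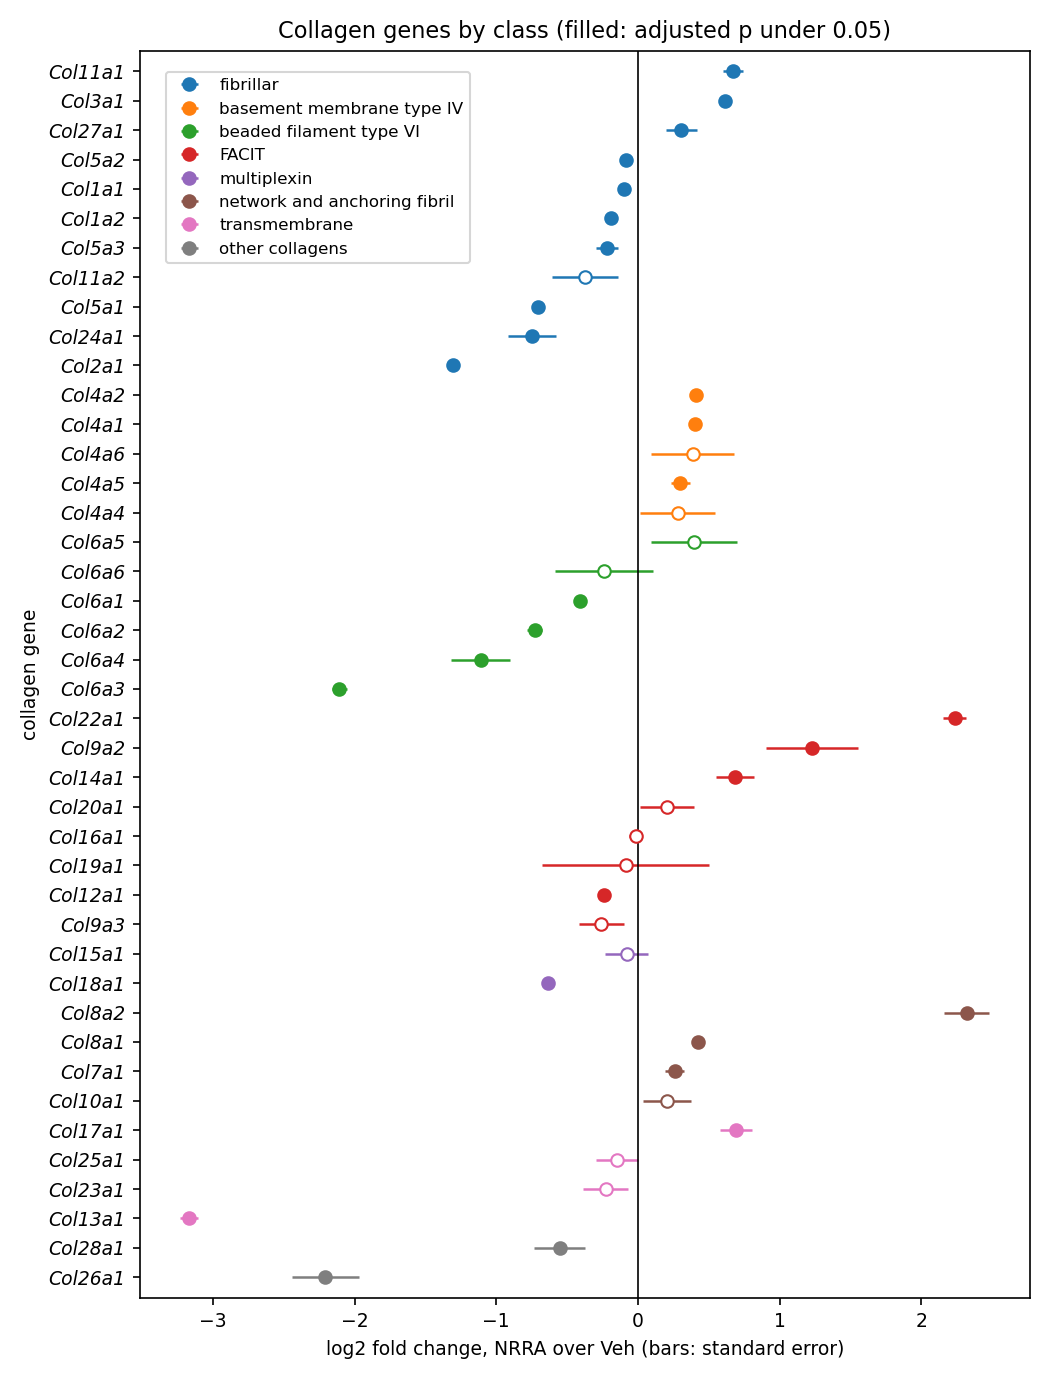
Log2 fold change of NRRA over Veh (horizontal axis, bars are standard errors of the fit, 2 libraries per group) for the 42 collagen genes tested, coloured by class. Filled points have an adjusted p under 0.05. Points of type IV chains all lie to the right of 0, whereas fibrillar and FACIT chains lie on both sides.

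Of the 11 fibrillar collagens 7 were lower and 3 higher (63.6% and 27.3%, beside 28.4% and 27.9% of all genes tested). Their median log2 fold change was -0.19, and the type III chain was among those that rose. With library size scaling 4 were lower and 3 higher, and with DESeq2 4 and 2. Without Veh replicate 1 or without NRRA replicate 2, 5 were lower and 2 higher. Col1a1 (chr11:94936224-94953042, plus strand, GRCm38), the major chain of type I collagen, was the most abundant collagen and stood at 1260 and 1207 CPM in Veh and at 1184 and 1121 CPM in NRRA. Its partner chain Col1a2 was at 593.5 and 596.7 CPM in Veh and at 535.9 and 505.5 CPM in NRRA. Both chains were lower in NRRA without overlap, by small amounts. The fall of Col1a1 was 0.10 on the log2 scale (SE 0.025, adjusted p = 0.00168), and with DESeq2 its adjusted p was 0.129, with library size scaling 0.826 and without NRRA replicate 2 0.0655. Col1a2 fell by 0.19 (SE 0.026, adjusted p = 5.36e-07).

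Col3a1 (chr1:45311538-45349706, plus strand) encodes the chain of type III collagen, which forms thin reticular fibrils together with type I. It was at 241.9 and 246.0 CPM in Veh and rose to 390.0 and 356.8 CPM in NRRA, a log2 fold change of 0.61 (SE 0.033, adjusted p = 9.49e-15). Col5a2, which lies tail to tail with Col3a1 and 24614 bases away, encodes a chain of type V collagen, the collagen that nucleates type I fibrils. Its 182.2 and 181.6 CPM in Veh and 177.2 and 165.6 CPM in NRRA gave a log2 fold change of -0.08 (SE 0.034, adjusted p = 0.0334). That small fall did not pass with DESeq2 (adjusted p = 0.179), without a count filter (0.0607), without Veh replicate 1 (0.0505) or without NRRA replicate 2 (0.498), and its sign turned with library size scaling. The other type V chains differed in size of change. Col5a1 went from 510.1 and 475.1 CPM to 308.7 and 293.8 CPM, a fall of 0.71 on the log2 scale (SE 0.031, adjusted p = 1.36e-16). Col5a3 fell by 0.22 (adjusted p = 0.0146), a call lost with DESeq2 (adjusted p = 0.152), with library size scaling (0.147) and without Veh replicate 1 (0.0818) or NRRA replicate 1 (0.191).

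Among fibrillar chains best known from cartilage, 1 fell and another rose. Col2a1, the chain of type II collagen, was at 146.9 and 146.7 CPM in Veh and 59.7 and 58.8 CPM in NRRA. It fell by 1.31 on the log2 scale (SE 0.038, adjusted p = 3.16e-20), the only fibrillar gene to change by at least 2-fold. Col11a1, which controls the diameter of type II fibrils, moved the other way, from 20.98 and 23.26 CPM to 36.1 and 34.5 CPM (log2 fold change 0.67, SE 0.069, adjusted p = 5.05e-09). Col11a2 was at 2.51 and 2.52 CPM in Veh and at 1.597 and 2.292 CPM in NRRA, and did not pass the test (log2 fold change -0.38, SE 0.23, adjusted p = 0.177). Col24a1 fell by 0.75 (adjusted p = 4.67e-04). Col27a1 rose by 0.31 (adjusted p = 0.02002), a call lost with DESeq2 (adjusted p = 0.168) and without Veh replicate 1 (0.0661) or NRRA replicate 2 (0.108).

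Type IV collagen, the scaffold of basement membranes, was higher in NRRA in 3 of 5 chains tested and lower in none. The median log2 fold change was 0.39. The share of these chains called was near the 56.4% of all genes tested, of which 27.9% were called higher and 28.4% lower. Without a count filter 6 chains were tested, with 3 higher and 1, Col4a3, lower. The genes lie in 3 head-to-head pairs, in which the members of a pair start close together and are read in opposite directions. Col4a1 and Col4a2 on chromosome 8, whose products join in the common type IV trimer, have annotated starts that overlap by 22 bases. Col4a4 and Col4a3 on chromosome 1 start 71 bases apart, and Col4a6 and Col4a5 on the X chromosome 1308 bases apart. Short windows at 2 of the starts are shown, 1 from the pair whose starts overlap and 1 from the pair on the X chromosome. The Col4a2 window (chr8:11312761-11312790, plus strand, RefSeq, GRCm38.p6) lies in the first exon annotated for Col4a1 on the other strand, and the Col4a5 window (chrX:141475169-141475418, plus strand) is taken upstream of its RefSeq start. Capitals mark CCAAT and the GC box GGGCGG.
Col4a2: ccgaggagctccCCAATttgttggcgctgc
Col4a5: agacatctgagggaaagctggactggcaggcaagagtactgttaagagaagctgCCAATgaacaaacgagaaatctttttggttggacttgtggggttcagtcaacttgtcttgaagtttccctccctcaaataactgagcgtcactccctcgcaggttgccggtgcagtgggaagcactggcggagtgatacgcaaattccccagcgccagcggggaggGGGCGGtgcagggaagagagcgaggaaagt

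Both chains of the common trimer rose by similar amounts. Col4a1 went from 313.9 and 300.6 CPM in Veh to 408.0 and 403.6 CPM in NRRA, and Col4a2 from 233.9 and 216.3 CPM to 307.8 and 290.5 CPM. The groups did not overlap for either gene, with log2 fold changes of 0.40 (SE 0.027, adjusted p = 1.25e-12) for Col4a1 and 0.41 (SE 0.034, adjusted p = 6.79e-11) for Col4a2. Per kilobase of exonic bases, Col4a1 stood at 1.19 and 1.23 times Col4a2 in Veh and at 1.18 and 1.23 times in NRRA, so that the ratio within the pair overlapped between groups.

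The chains of the minor type IV networks were lower in level, with Col4a5 at 4.04 ± 0.31 CPM per kilobase of exonic bases in Veh against 41.2 ± 1.27 for Col4a1 (SD, n = 2). Col4a5, mutated in Alport syndrome, was at 28.6 and 25.7 CPM in Veh and 34.0 and 32.6 CPM in NRRA, and rose by 0.30 on the log2 scale (SE 0.068, adjusted p = 4.95e-04). Its pair partner Col4a6 was at 1.14 and 1.08 CPM in Veh and 1.505 and 1.395 CPM in NRRA, and its log2 fold change of 0.39 had an SE of 0.29 (adjusted p = 0.276). The groups did not overlap, but the gene did not pass the test. Col4a4 was at 2.10 and 1.28 CPM against 2.15 and 1.93 CPM, with overlapping groups (log2 fold change 0.28, SE 0.26, adjusted p = 0.384). Col4a3 did not pass the count filter. Its counts were 8 and 14 in Veh against 1 and 2 in NRRA, and 5.65% of its exonic bases overlap a gene on the other strand.

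**Figure D2:**
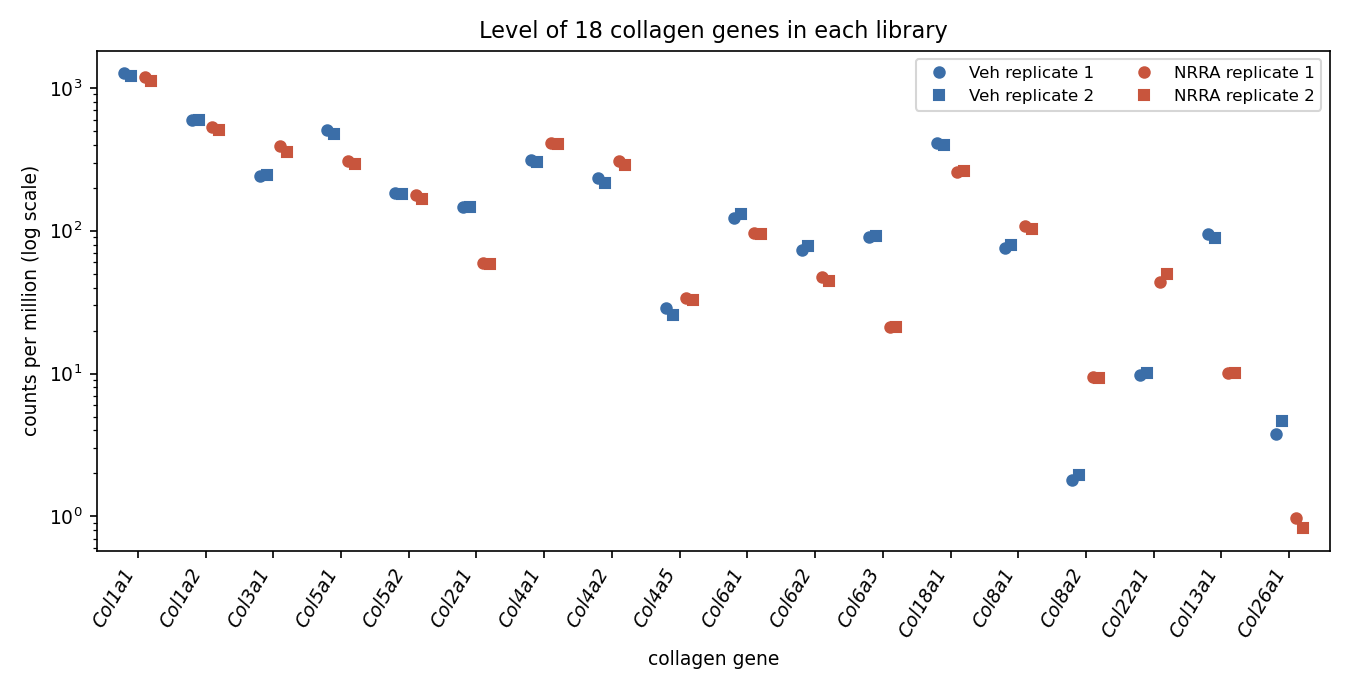
CPM in each library (vertical axis, log scale) for collagen chains of the major trimers and for the collagen genes with the greatest changes. The 2 Veh and 2 NRRA libraries are drawn as separate points, and the Col13a1, Col6a3 and Col26a1 points of NRRA lie well below those of Veh, while Col8a2 and Col22a1 lie above.

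Type VI collagen assembles into beaded filaments at the cell surface of fibroblasts and other stromal cells. In NRRA 4 of its 6 chains fell and none rose, with a median log2 fold change of -0.57. The 66.7% called, all lower, stood beside 56.4% called and 28.4% lower of all genes tested. Col6a1 was at 123.4 and 130.7 CPM in Veh and 96.1 and 95.3 CPM in NRRA (log2 fold change -0.41, SE 0.038, adjusted p = 7.11e-10), and its neighbour Col6a2 went from 73.8 and 78.7 CPM to 47.7 and 44.3 CPM (-0.73, SE 0.051, adjusted p = 2.57e-12). Col6a3 (chr1:90765923-90843971, minus strand), the largest chain of the trimer, fell most. It went from 90.7 and 91.8 CPM to 21.1 and 21.3 CPM, a fall of 2.11 on the log2 scale (SE 0.053, adjusted p = 1.07e-21). The chains of this trimer therefore shifted unequally: per kilobase of exonic bases Col6a3 stood at 0.269 and 0.257 times Col6a1 in Veh and at 0.0803 and 0.0818 times in NRRA. Col6a1 stood at 3.18 and 3.16 times Col6a2 in Veh and at 3.83 and 4.09 times in NRRA. Groups did not overlap in either ratio.

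Col6a4, Col6a5 and Col6a6 lie in a row on chromosome 9 and encode alternative chains that resemble the type VI alpha 3 chain. Col6a4 was at 4.20 and 4.03 CPM in Veh and 1.54 and 2.29 CPM in NRRA (log2 fold change -1.11, SE 0.21, adjusted p = 5.94e-05). Col6a5 had a log2 fold change of 0.39 (SE 0.30, adjusted p = 0.283) and Col6a6 one of -0.24 (SE 0.34, adjusted p = 0.582). Neither passed, although Col6a5 did without Veh replicate 2 (0.96, adjusted p = 0.0329). Of the longest transcript of Col6a5, 6.16% is near-identical to Col6a6, so counts of these genes at about 1 CPM are uncertain.

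Among FACIT collagens 3 of 8 tested rose and 1 fell, beside 27.9% higher and 28.4% lower of all genes tested. The share of the class called in either direction lay below the 56.4% of all genes. Col22a1 (chr15:71795795-72034227, minus strand), a collagen of tissue junctions such as that of muscle and tendon, was at 9.73 and 10.1 CPM in Veh and at 44.0 and 49.5 CPM in NRRA. This was a log2 fold change of 2.24 (SE 0.079, adjusted p = 1.84e-18) with both NRRA libraries far above both Veh libraries. Col9a2, a type IX chain that coats type II fibrils, was at 0.737 and 0.672 CPM in Veh and 1.90 and 1.40 CPM in NRRA (1.23, SE 0.32, adjusted p = 0.00213), and without NRRA replicate 1 its adjusted p was 0.0600. Of the other type IX chains, Col9a3 was at 8.92 and 13.8 CPM in Veh and at 10.4 and 8.64 CPM in NRRA with overlapping groups (log2 fold change -0.26, SE 0.16, adjusted p = 0.179), while Col9a1 (counts of 2 and 0 in Veh, 6 and 5 in NRRA) was too low to test. The Col9a3 call turned on single libraries, with an adjusted p of 9.45e-05 without Veh replicate 1, where the log2 fold change was -0.53, and of 0.0160 without NRRA replicate 1, where it was -0.40. Its counts are also uncertain, because 6.07% of its exonic bases overlap Tcfl5 on the other strand.

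Of the other FACIT genes 1 rose and 1 fell. Col14a1, which binds fibrils and limits their growth, rose from 5.12 and 4.74 CPM to 7.77 and 8.07 CPM (log2 fold change 0.68, SE 0.14, adjusted p = 1.14e-04). Col12a1, a FACIT collagen of dense connective tissue, was at 132.1 and 130.0 CPM in Veh and 111.2 and 111.1 CPM in NRRA and fell by 0.24 (SE 0.035, adjusted p = 2.03e-06). Col16a1 had a log2 fold change of -0.02 (SE 0.047, adjusted p = 0.796), and its groups overlapped at 71.0 to 77.5 CPM. Col20a1 (0.21, SE 0.19) and Col19a1 (-0.09, SE 0.59) did not pass, the latter with values between 0.168 and 0.590 CPM.

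The multiplexins are basement membrane collagens whose ends can be cleaved to fragments such as endostatin. Col18a1, the source of endostatin, was among the most abundant collagens, at 412.1 and 395.6 CPM in Veh and 258.3 and 260.6 CPM in NRRA. It fell by 0.64 on the log2 scale (SE 0.027, adjusted p = 1.09e-16), opposite in direction to Col4a1 and Col4a2 of the basement membrane. Col15a1 was at 5.60 and 5.21 CPM in Veh and at 4.57 and 5.68 CPM in NRRA, with overlapping groups and a log2 fold change of -0.08 (SE 0.15, adjusted p = 0.692).

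Of the 4 network and anchoring fibril collagens 3 were higher and none lower, with a median log2 fold change of 0.34. The 75.0% called, all higher, stood beside 56.4% called and 27.9% higher of all genes tested. Type VIII collagen, which forms hexagonal networks such as that under the corneal endothelium, was higher in both chains. Col8a1 went from 76.2 and 79.99 CPM to 107.8 and 102.0 CPM (0.43, SE 0.042, adjusted p = 2.06e-09). Col8a2 (chr4:126286793-126314330, plus strand) went from 1.81 and 1.95 CPM to 9.49 and 9.33 CPM, and its log2 fold change of 2.32 (SE 0.16, adjusted p = 1.97e-12) was the highest of the collagen genes tested. Col7a1, the anchoring fibril chain that ties basement membrane to stroma, rose by 0.26 (SE 0.064, adjusted p = 0.00119). Col10a1, known from hypertrophic cartilage, had a log2 fold change of 0.21 (SE 0.17, adjusted p = 0.311).

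Transmembrane collagens diverged. Col13a1 (chr10:61838236-61979108, minus strand), a collagen of cell adhesion sites, had the lowest log2 fold change of the collagen genes: it was at 94.2 and 88.2 CPM in Veh and 10.1 and 10.2 CPM in NRRA, a fall of 3.17 on the log2 scale (SE 0.064, adjusted p = 9.37e-24). Col17a1, a hemidesmosome component of epithelia, rose from 9.33 and 7.33 CPM to 13.4 and 13.4 CPM (0.69, SE 0.11, adjusted p = 1.05e-05). Col23a1 (-0.23, SE 0.16) and Col25a1 (-0.15, SE 0.15) did not pass, although Col23a1 did without NRRA replicate 1 (-0.47, adjusted p = 0.0384). Both other collagens fell. Col26a1 was at 3.76 and 4.64 CPM in Veh and 0.983 and 0.830 CPM in NRRA (-2.21, SE 0.24, adjusted p = 1.03e-08). Col28a1 had a log2 fold change of -0.55 (adjusted p = 0.0114), with an adjusted p of 0.138 in DESeq2 and of 0.106 without NRRA replicate 2.

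The 250 bases at the starts of Col8a2 and Col13a1, which moved most in opposite directions, are printed to show how their promoters differ in the motifs searched. They come from RefSeq on GRCm38.p6, at chr4:126286544-126286793 on the plus strand and chr10:61979109-61979358 on the minus strand. Capitals mark the GC box GGGCGG and the TATA box TATAAA, found on either strand.
Col8a2: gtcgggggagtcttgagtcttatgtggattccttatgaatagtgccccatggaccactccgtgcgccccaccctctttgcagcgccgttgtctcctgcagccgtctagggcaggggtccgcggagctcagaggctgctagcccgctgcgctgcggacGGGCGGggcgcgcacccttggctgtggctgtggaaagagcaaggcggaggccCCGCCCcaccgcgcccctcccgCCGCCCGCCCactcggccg
Col13a1: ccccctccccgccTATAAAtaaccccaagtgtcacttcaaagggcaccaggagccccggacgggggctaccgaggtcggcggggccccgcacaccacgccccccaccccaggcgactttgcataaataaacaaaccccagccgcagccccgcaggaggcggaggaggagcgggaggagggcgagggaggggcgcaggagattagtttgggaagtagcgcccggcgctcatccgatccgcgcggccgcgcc

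The Col8a2 stretch held 4 GC boxes and no TATA box, and that of Col13a1 held 1 TATA box and no GC box. RefSeq promoters, 250 bases before to 50 after a start, were matched for 35 of the 44 genes in 38 windows. A GC box was in 60.5% of these windows and in 35.7% of all 32851 windows. CCAAT was in 34.2% against 37.4%, TATAAA in 13.2% against 13.6%, and AGGTCA, a motif that nuclear receptors can bind, in 21.1% against 16.3%, all counted on both strands. These are descriptions of letters and not of sites in use.

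Levels of different collagen genes were compared per kilobase of exonic bases. In Veh the order ran Col1a1 (187.9 ± 5.72 CPM per kilobase, SD, n = 2), Col5a1 (58.0 ± 2.91), Col18a1 (57.5 ± 1.67), Col1a2 (47.9 ± 0.18), Col4a1 (41.2 ± 1.27) and Col4a2 (34.0 ± 1.88). Col5a1 and Col18a1 did not differ beyond their spread. In NRRA, Col1a1 was again first (175.7 ± 6.78), and Col4a1 (54.4 ± 0.42), Col4a2 (45.2 ± 1.84), Col1a2 (41.9 ± 1.73) and Col3a1 (38.0 ± 2.39) came next, ahead of Col18a1 (37.0 ± 0.22) and Col5a1 (35.5 ± 1.24). Col3a1 and Col18a1 did not differ beyond their spread, and both Col18a1 values lay above both of Col5a1. The order depended on the length used: per kilobase of the longest transcript Col1a2 came second in both groups, at 111.0 and 111.6 in Veh and at 100.2 and 94.5 in NRRA, ahead of Col18a1 at 73.7 and 70.7 in Veh and of Col3a1 at 70.1 and 64.1 in NRRA. The ratio of Col1a1 to Col1a2 was 3.92 ± 0.13 in Veh and 4.19 ± 0.01 in NRRA per kilobase of exonic bases, against 1.87 and 2.00 per kilobase of the longest transcript.

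The makeup of the collagen RNA differed between the groups in most classes. Fibrillar chains held 62.9% of collagen counts in both Veh libraries, against 62.5% and 61.6% in NRRA, and type I alone held 38.9% in both Veh libraries and 39.4% and 38.9% in NRRA. Type IV chains held 12.2% and 11.8% in Veh and 17.3% and 17.5% in NRRA. Type VI chains went from 6.17% and 6.64% to 3.87% and 3.96%, multiplexins from 8.77% and 8.64% to 6.02% and 6.37%, and transmembrane collagens from 2.41% and 2.29% to 0.781% and 0.772%. Per kilobase, the ratio of Col1a1 to Col3a1 went from 7.79 and 7.34 to 4.54 and 4.70, that of Col5a1 to Col5a2 from 3.16 and 2.96 to 1.97 and 2.00, and that of Col4a1 to Col1a1 from 0.219 and 0.219 to 0.303 and 0.316. None of these ratios overlapped between groups. With 2 libraries against 2, a two-sided exact permutation test of a single value cannot go below p = 0.333, so shares and ratios are given without a test.

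**Figure D3:**
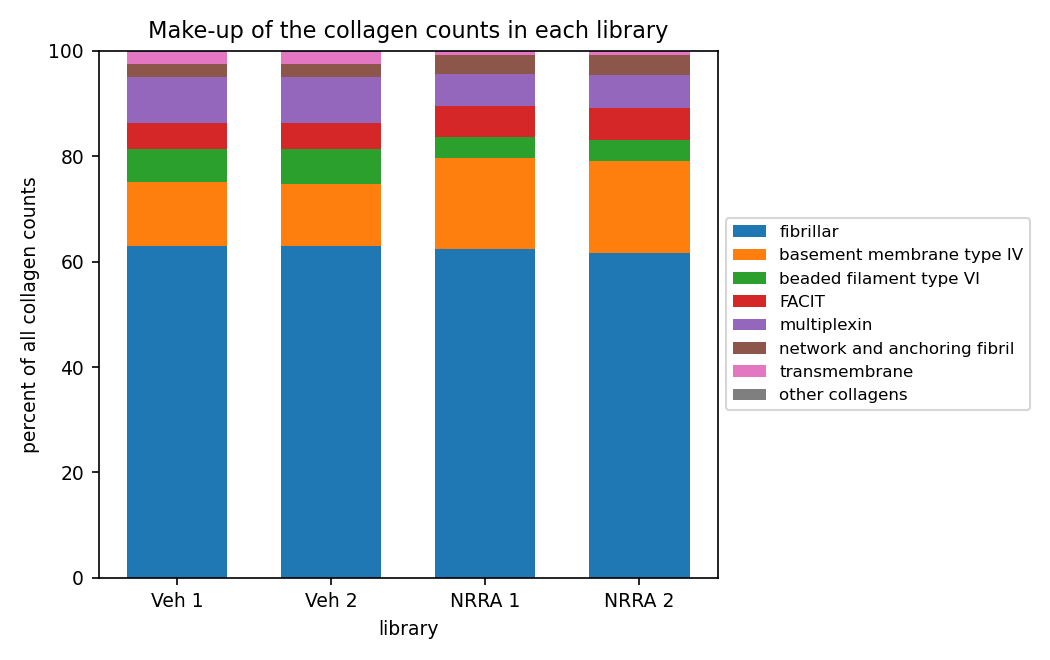
Percent of all collagen counts (vertical axis) taken by each collagen class in each library, stacked to the whole. The type IV band is wider in both NRRA libraries than in both Veh libraries, and the type VI, multiplexin and transmembrane bands are narrower, beside a near-constant fibrillar band.

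Genes that make and process collagen were called in both directions. Of 21 tested genes of collagen synthesis and folding, 8 were higher and 10 lower (38.1% and 47.6%, beside 27.9% and 28.4% of all genes tested), with a median log2 fold change of -0.08, and 5 were lower with library size scaling and 6 without NRRA replicate 2. The lysyl hydroxylase Plod1 rose most, from 99.7 and 96.3 CPM to 186.6 and 186.7 CPM (log2 fold change 0.93, SE 0.034, adjusted p = 3.73e-18), and Plod2 rose by 0.33. The prolyl 4-hydroxylase subunits split: P4ha1 rose by 0.58 and P4ha2 by 0.52, whereas P4ha3 had the lowest value of the list, at 7.63 and 6.62 CPM in Veh and 3.84 and 3.49 CPM in NRRA (-0.96, SE 0.15, adjusted p = 5.56e-06). Serpinh1, the collagen chaperone HSP47, was at 300.8 and 302.2 CPM in Veh and 231.7 and 219.9 CPM in NRRA and fell by 0.42 (SE 0.029, adjusted p = 3.13e-12). Plod3 and Sparc fell by 0.12 and 0.17.

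Of 14 genes that trim procollagen or crosslink fibrils, 5 were higher and 3 lower, with a median log2 fold change of -0.02, and the 57.1% called was close to the 56.4% of all genes. The procollagen proteinases Adamts3 (1.37) and Adamts14 (1.16) and the lysyl oxidase Loxl4 (1.15) rose by over 2-fold. Loxl2 had the highest value (1.42), but 48.01% of its longest transcript is near-identical to parts of other genes, which leaves its count uncertain. Lox, the founding lysyl oxidase, went from 526.2 and 521.3 CPM to 339.1 and 321.4 CPM and fell by 0.67 (SE 0.027, adjusted p = 3.15e-17), and Tll1 was lowest (-1.52). Of 9 collagen receptors tested, 1 rose and 4 fell, and the median was -0.10, with 55.6% called beside the same 56.4%. With library size scaling 2 were higher, and 5 were lower with the stricter filter, with the replicate block, without Veh replicate 1 and without NRRA replicate 2. Mrc2, an endocytic collagen receptor, rose by 0.48. Adgrg1, which binds type III collagen, fell by 4.01 from 82.4 and 87.6 CPM to 5.005 and 5.547 CPM, and the collagen-activated kinase Ddr1 fell by 1.90 from 149.9 and 147.1 CPM to 39.0 and 40.8 CPM. The integrin gene Itga2 fell by 0.97, whereas Ddr2 (-0.10), Itga1 (0.26) and Itga11 (0.10) did not pass.

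Of 14 other basement membrane proteins tested, 6 were higher and 6 lower (85.7% called, beside 56.4% of all genes), with a median log2 fold change of -0.03, and the difference from the type IV genes was not tested. Laminin chains Lama1, Lama2 and Lamb2 rose by 0.82, 0.44 and 0.36, and Lamc1 and Nid1 fell by 0.36 and 0.14 beside a rise of 0.18 for Hspg2, the gene of perlecan. Of 8 small proteoglycans and related proteins of fibril surfaces tested, 5 were lower and 1 higher (75.0% called), with a median of -0.53. Ogn rose by 3.75, from 1.84 and 1.71 CPM to 24.3 and 23.6 CPM, Lum fell by 1.43 and Dcn by 0.13.

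**Figure D4:**
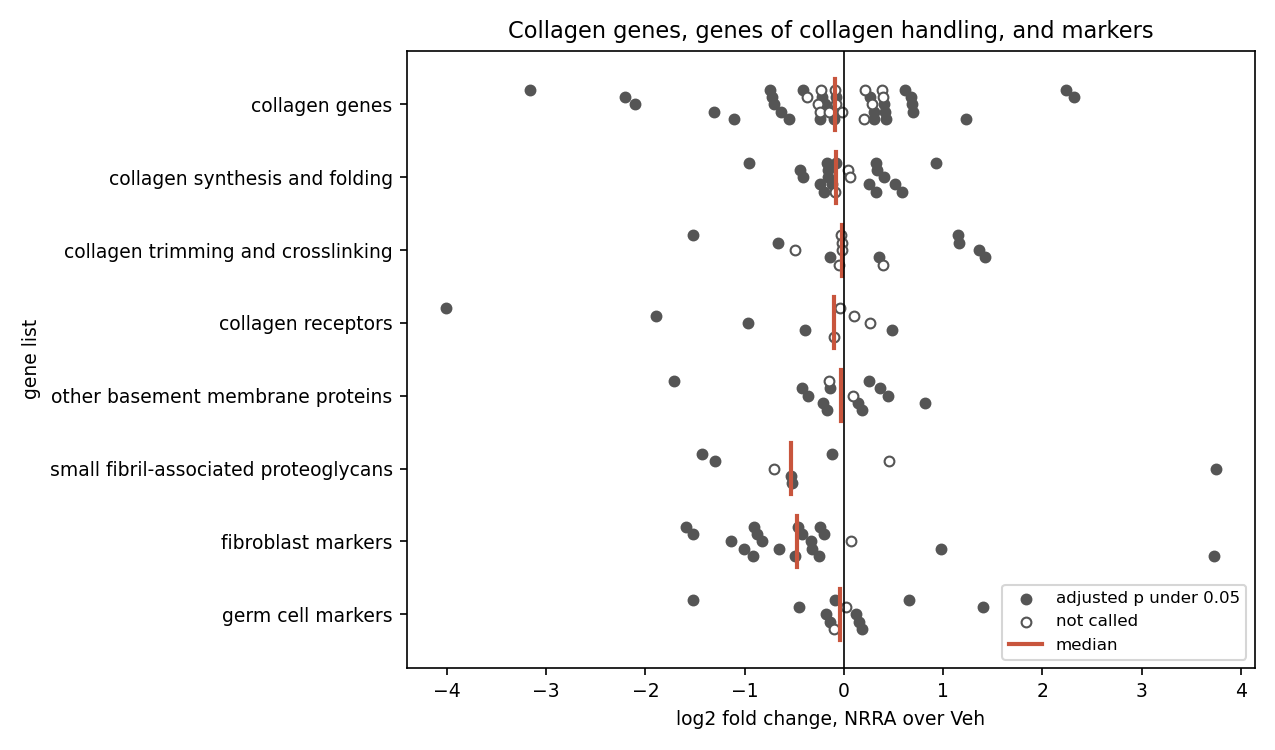
Log2 fold change of NRRA over Veh (horizontal axis) for every tested gene of the collagen-related lists and of the fibroblast and germ cell marker lists, 1 row of points per list, with filled points for an adjusted p under 0.05 and a mark at the list median. Fibroblast markers lie mostly left of 0 with a median of -0.48, while collagen genes spread to both sides around a median of -0.09.

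Fibroblast markers, with no collagen gene among them, were lower as a list. Of 20 tested 17 were lower and 2 higher (Fap, 3.73, and Pdgfra, 0.98). These are 85.0% and 10.0%, beside 28.4% lower and 27.9% higher of all genes tested. The sum of the list was 1.01% of counts in both Veh libraries and 0.722% and 0.719% in NRRA, most of it Fn1. The collagen counts did not follow that sum: there were 0.456 and 0.444 collagen counts per fibroblast marker count in Veh and 0.623 and 0.600 in NRRA, with no overlap. Germ cell markers, 5 of 12 higher and 5 lower, summed to 0.228% and 0.233% in Veh and to 0.256% and 0.254% in NRRA. Sycp3 rose most, from 27.43 and 27.42 CPM to 73.8 and 71.0 CPM, but 52.2% of its exonic bases overlap Chpt1 on the other strand. Tdrd5 fell most, from 160.2 and 158.0 CPM to 55.4 and 55.7 CPM. Ddx4 did not pass (adjusted p = 0.511), at 272.9 and 267.7 CPM in Veh and 270.9 and 278.4 CPM in NRRA. The rise of the germ cell sum therefore cannot be read as one of the whole list. The marker lists of testicular somatic cells had low sums, with Acta2, Tagln and Vim counted in the fibroblast list. Sertoli cell markers summed to 0.00378% and 0.00424% of counts in Veh and to 0.00240% and 0.00245% in NRRA. Of 7 tested 2 were higher and 2 lower, and the 57.1% called was near the 56.4% of all genes tested. Sox9 alone held 735 and 874 of the 1059 and 1302 counts of this list in Veh. In NRRA it held 304 and 284 of 759 and 716, so the fall of the sum cannot be read as one of the whole list. Sox9, a factor that Sertoli cells share with cartilage, was at 27.1 and 29.4 CPM in Veh and 9.33 and 9.43 CPM in NRRA (log2 fold change -1.59, SE 0.086, adjusted p = 1.33e-14). Gata1 was lower too (-1.46, adjusted p = 0.0184), whereas Aard (1.95, adjusted p = 1.19e-05) and Inha (0.53, adjusted p = 0.0178) were higher. Wt1 had 178 to 233 counts. Fshr was at 0 in all libraries and Amh at 1 to 3 counts. Of the peritubular myoid list 5 of 6 tested were lower, and of the Leydig list 1 of 2 was higher. Of the endothelial list 2 of 6 were lower and 1 higher, and of the macrophage list 2 of 6 were lower. The shares called in the endothelial, macrophage and Leydig lists lay below the 56.4% of all genes tested. That of the myoid list lay above it. None of these lists summed to more than 0.00516% in a library. The part of these marker shifts in the collagen values was not tested.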

How the data were processed

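Deposited values were raw counts per gene in 4 libraries, made by the authors with bcl2fastq, STAR 2.6.1c and featureCounts 1.6.4 on mm10 per the submitters' processing notes. The annotation release and strand setting are not given in the sources used here, so reads of overlapping genes on opposite strands may not be told apart. Library columns were matched to samples by their descriptions. Members and gene lists were chosen with earlier results of these data known. Counts were tested with edgeR 4.0.16 in R 4.3.3 (filterByExpr with a minimum count of 10, TMM, robust quasi-likelihood F test, Benjamini-Hochberg over 20232 genes, threshold 0.05), and the SE is the log2 fold change divided by the root of F. The fit was tested on simulated data. Exonic lengths and positions came from GENCODE M21 on GRCm38 and promoters from RefSeq. Near-identical means at least 95% identity over at least 100 bases. Named were the chains of the major trimers, the 5 highest and the 5 lowest called collagens, and the highest and lowest called gene of each pathway list with a few fixed names; 1 such gene is not reported here. Alternatives were DESeq2 1.42.0, RLE and library size scaling, no filter or a minimum count of 30, no robust estimation, a replicate block, another gene length and leaving out each library. Floors cover counting error only.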

Additional observations from a re-analysis of the deposited data

How the results depend on the processing

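With the full data, 280 of 292 log2 fold changes of collagen genes under the alternatives kept direction and call, 8 lost the call and 4 turned sign. With 1 library left out, 148 of 168 kept both, 9 lost and 4 gained the call and 7 turned. Collagen genes called higher and lower were 13 and 13 with library size scaling and 12 and 12 with DESeq2, which called 4252 genes higher and 4314 lower in all, against 5654 and 5752. Library size scaling gave 5 lower genes of collagen synthesis and folding, 2 higher receptors, a median collagen log2 fold change of 0.0041, and turned Col5a2 (0.0049), Col15a1 (0.011), Col16a1 (0.074) and Col19a1 (0.0033). Leaving out 1 library gave 6 to 11 lower synthesis and folding genes (6 without NRRA replicate 2) and collagen medians from -0.13 to -0.04. Over the fits without 1 library, genes that turned sign ranged from -0.077 to 0.044 (Col16a1), -0.75 to 1.04 (Col19a1), -0.53 to 0.095 (Col9a3), -0.044 to 0.67 (Col4a4) and -0.24 to 0.077 (Col15a1), and none of these had passed the test on all libraries. The left-out fits assume that a lone library varies as the other group does. The cause of these changes was not tested. The Veh collagen share was 0.470% on TMM-adjusted library sizes. Per kilobase of the longest transcript, Col1a1 over Col1a2 was 1.87 in Veh and 2.00 in NRRA, Col4a1 over Col4a2 1.33 and 1.32, and Col6a1 over Col6a2 2.00 and 2.496. The pairing rests on the numbers in the sample titles, and the column names number the Veh libraries differently. Same-numbered libraries did not deviate together (correlation 0.0293 across 11326 genes), and the replicate block, with 13 collagen genes higher and 16 lower, changed no collagen call.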
